A study of Arabidopsis thaliana with 44 samples.

Results

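The 52 genes described here were the gene probes of the Agilent 22 K Arabidopsis microarray whose annotation named an AP2 domain (46 probes) or an ethylene response (6 probes), out of 21500 gene probes. The rule that picked them reads the wording of the annotation and no measured value. AP2 domain proteins are plant transcription factors that bind DNA through the AP2 domain. The ERF branch is known for binding GCC boxes in genes that answer ethylene, jasmonate and pathogens, the DREB branch for binding dehydration response elements in genes that answer cold, drought and salt, and a few members act in flowering, organ growth and the cuticle. The wording took in 1 gene of another kind, ERS1, which encodes an ethylene receptor without an AP2 domain, so 51 of the 52 genes are of the AP2 kind by their annotation. Many well-known factors of the family were described in other words on the microarray and are not among the 52. In a reference table of gene names 51 of the 52 were found, and 34 had a symbol there. HRE1 and HRE2 stand in that table as ERF73 and ERF71.

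Total RNA came from 5 Arabidopsis thaliana samples. They were actively growing callus, immature floral buds of mixed stages (inflorescence), leaves and roots of untreated plants at 21 days, and siliques, the young fruits, collected 24 to 48 h after fertilization. On 8 self-self microarrays both dyes labelled the same RNA, with 2 microarrays (A and B) each for callus, inflorescence, leaf and root. On 2 root/leaf microarrays root RNA carried Cy5 (red) and leaf RNA Cy3 (green), and on 2 silique/inflorescence microarrays silique RNA carried Cy5 and inflorescence RNA Cy3, with no dye swap deposited for either. Microarrays A and B repeated the same RNA, so every test below is against technical error and says nothing of the spread between plants. A tissue is a mixture of cells, so fewer cells of a type and less RNA per cell cannot be told apart.

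The marker genes fitted the labels of the direct comparisons. All 6 leaf markers were lower in root than in leaf, all 6 root markers were higher, and all 3 young silique markers were higher in silique than in inflorescence. Root self-self microarray A stood apart. The summed level of the 6 leaf markers was 3347 on root microarray A and 209 on root microarray B, against 7207 and 7332 on the leaf microarrays, in normalized expression units (NEU, the signal of a probe divided by the summed signal of the microarray and multiplied by 1000000). Its red over green ratio, which should not vary on a self-self microarray, correlated with the root/leaf ratio over all gene probes (r = 0.62), while the 7 other self-self microarrays gave 0.003 to 0.12. Over the 52 members the correlation on root microarray A was 0.21. The counts and the leading values that rest on root levels are therefore also given without it. The silique channel was dim. The median raw signal over local background was 3.20 and 2.59 there, against 10.1 to 29.9 for Cy5 where both dyes held one RNA, and 28 of the 52 members were well above background in both channels of both silique/inflorescence microarrays. On the root/leaf microarrays 50 of 52 were.

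Levels in callus, inflorescence, leaf and root differed widely among the members. Callus held 13 members with both microarrays above the 6 others, as did root, while leaf held 6 and inflorescence 4. Over all gene probes the shares with that pattern were 17.6% for callus, 20.5% for root, 9.87% for leaf and 15.9% for inflorescence. Inflorescence was the tissue in which members were most often lowest, with 14 of 52 below every other microarray, against 11.3% of all gene probes. The corresponding counts were 6 for callus (19% of all probes), 2 for leaf (14%) and 1 for root (7.84%). Without root microarray A, where root had to exceed the others on 1 microarray alone, the counts of the highest members were 22 for root (30.3% of all probes), 13 for callus (18.5%), 6 for leaf (11.7%) and 4 for inflorescence (16.9%), and 16 members were lowest in inflorescence (12.1%). These counts include members with an outlier-marked spot. Without such members 12 were highest in callus, 11 in root, 6 in leaf and 4 in inflorescence, and 13 were lowest in inflorescence.

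**Figure D1:**
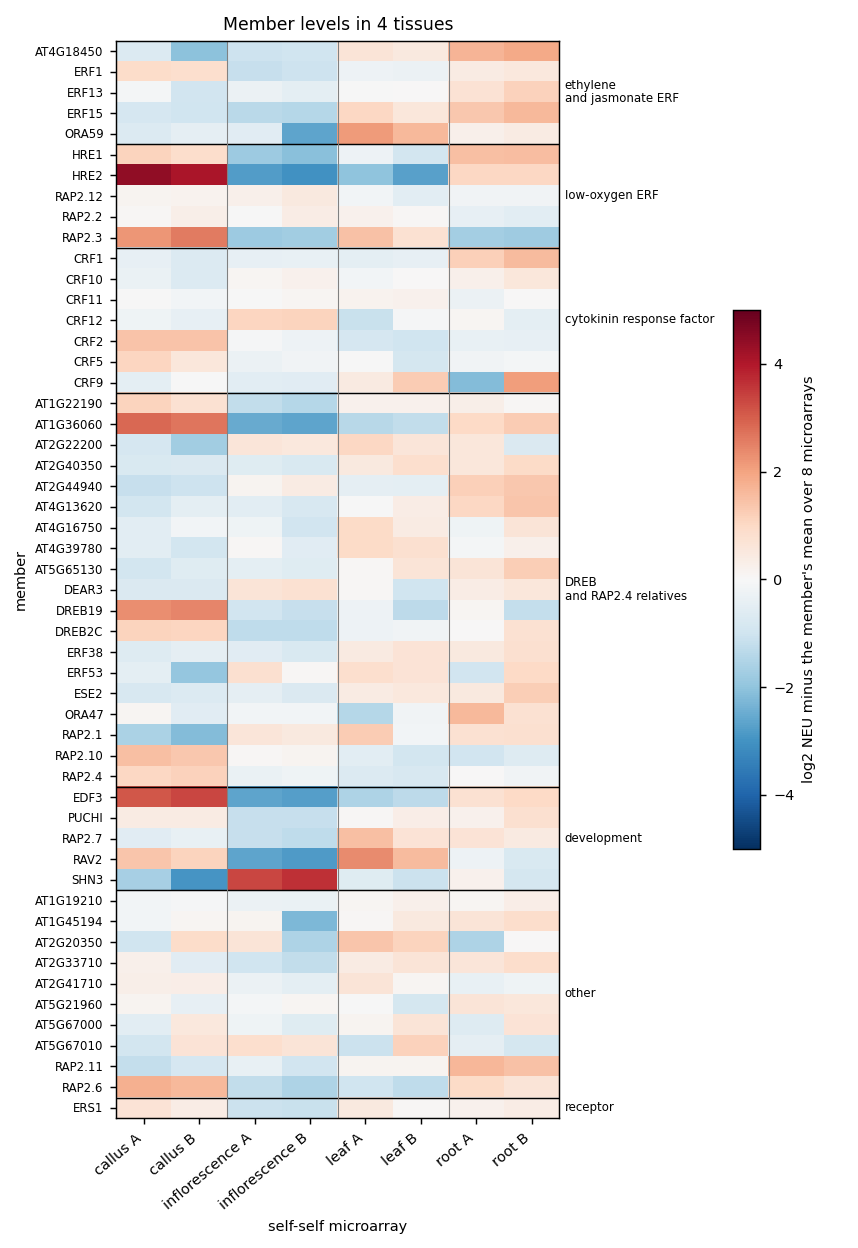
Level of each of the 52 members (rows, grouped by known role) on the 8 self-self microarrays (columns), as log2 NEU minus the mean of that member. Red is above and blue below the member's own mean, so that rows are not compared with each other, and HRE2, EDF3 and AT1G36060 are red in callus while SHN3 is red in inflorescence.

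The low-oxygen factors of group VII of the ERF family, which control the response of plants to flooding, held the member with the widest range, HRE2, at 143-fold between its highest and its lowest tissue. This gene, which hypoxia induces, measured 93.6 and 72.7 NEU in callus, 8.79 and 8.87 NEU in root, 1.07 and 0.663 NEU in leaf, and 0.629 and 0.531 NEU in inflorescence. Callus lay above the 6 other microarrays, and root above leaf and inflorescence. By limma with Benjamini-Hochberg adjustment over all gene probes, HRE2 was 9.34-fold higher in callus than in root (adjusted p = 0.00046) and 143-fold higher in callus than in inflorescence (adjusted p = 1.3e-05). The inflorescence signal under the 143-fold was low. It was well above background on both self-self microarrays, but on only 1 of the 2 silique/inflorescence microarrays. Without root microarray A the log2 difference of callus over root was 3.22, as with it. Its relative HRE1 was highest in root, at 94.2 and 96.0 NEU, followed by callus at 70.4 and 59.8 NEU, a log2 difference of callus minus root of -0.55 that did not pass the threshold (adjusted p = 0.11; -0.56 without root microarray A). HRE1 was lower in leaf, at 27.7 and 17.6 NEU, and lowest in inflorescence, at 9.44 and 7.70 NEU.

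RAP2.3, a group VII factor whose protein is degraded when oxygen is present, had another pattern. It measured 1669 and 2203 NEU in callus, where its spots were saturated on both microarrays, and 983 and 605 NEU in leaf. Root gave 112 and 106 NEU and inflorescence 102 and 107 NEU. Callus was at least 2.49-fold higher than leaf (adjusted p = 0.0057), a bound because of the saturation. Root was lower than leaf by a log2 difference of -2.82 (adjusted p = 0.0007), or -2.86 without root microarray A, and inflorescence by -2.89 (adjusted p = 0.00061). Root and inflorescence did not differ beyond their technical spread. RAP2.12 and RAP2.2, which act with RAP2.3 in oxygen sensing, varied little, with the highest tissue 1.62-fold above the lowest for RAP2.12 and 1.58-fold for RAP2.2. RAP2.2 was marked as an outlier spot on both callus microarrays, so it had no test there and 51 members entered the callus comparisons. It was also marked on 1 microarray of inflorescence, its highest tissue, and its 1.58-fold includes the marked spots.

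EDF3, a RAV-type factor that ethylene induces, measured 179 and 210.0 NEU in callus, 35.5 and 41.6 NEU in root, 7.15 and 8.26 NEU in leaf, and 3.36 and 3.09 NEU in inflorescence. The 4 tissues did not overlap. Callus was 5.05-fold higher than root (adjusted p = 0.00025), a log2 difference of 2.34 that was 2.22 without root microarray A. The relative RAV2, or TEMPRANILLO 2, a repressor of flowering, was ordered otherwise, at 393 and 230 NEU in leaf, 196 and 167 NEU in callus, 64.3 and 45.5 NEU in root, and 12.3 and 10.6 NEU in inflorescence. The difference of callus and leaf did not pass the threshold for RAV2 (adjusted p = 0.08), and inflorescence was 26.3-fold lower than leaf (adjusted p = 0.00021). RAP2.7, also known as TOE1 and likewise a repressor of flowering, was lowest in inflorescence, at 9.06 and 8.34 NEU, and highest in leaf, at 56.5 and 32.2 NEU, and inflorescence was 4.91-fold lower than leaf (adjusted p = 0.0018).

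SHN3 was the member most biased to the floral buds. SHN factors raise the deposition of cutin and wax, and SHN3 measured 30.1 and 38.2 NEU in inflorescence, 3.44 and 1.61 NEU in root, 1.95 and 1.42 NEU in leaf, and 0.959 and 0.387 NEU in callus. Inflorescence was 14.4-fold higher than root (adjusted p = 0.0019), a log2 difference of 3.85 that was 4.40 without root microarray A, and 55.7-fold higher than callus (adjusted p = 0.00028). The red channel of SHN3 was well above background on 1 of the 2 callus microarrays, so the fold over callus rests in part on a signal near background. The log2 difference of callus minus inflorescence was -5.80, and -6.45 without callus A or -5.14 without callus B. CRF12, of the cytokinin response factor group, was also highest in inflorescence, at 37.3 and 37.9 NEU, against 18.7 and 12.6 NEU in root and 15.1 and 13.3 NEU in callus. The call of inflorescence over root for CRF12 (log2 1.29) was lost without inflorescence A (log2 1.31), inflorescence B (log2 1.28) or root B (log2 1.01). DEAR3, a repressor of the DREB type, and RAP2.12 were the other members highest in inflorescence, but by little. Inflorescence was 1.18-fold above root for DEAR3 and 1.16-fold above callus for RAP2.12, and neither difference was called.

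**Figure D2:**
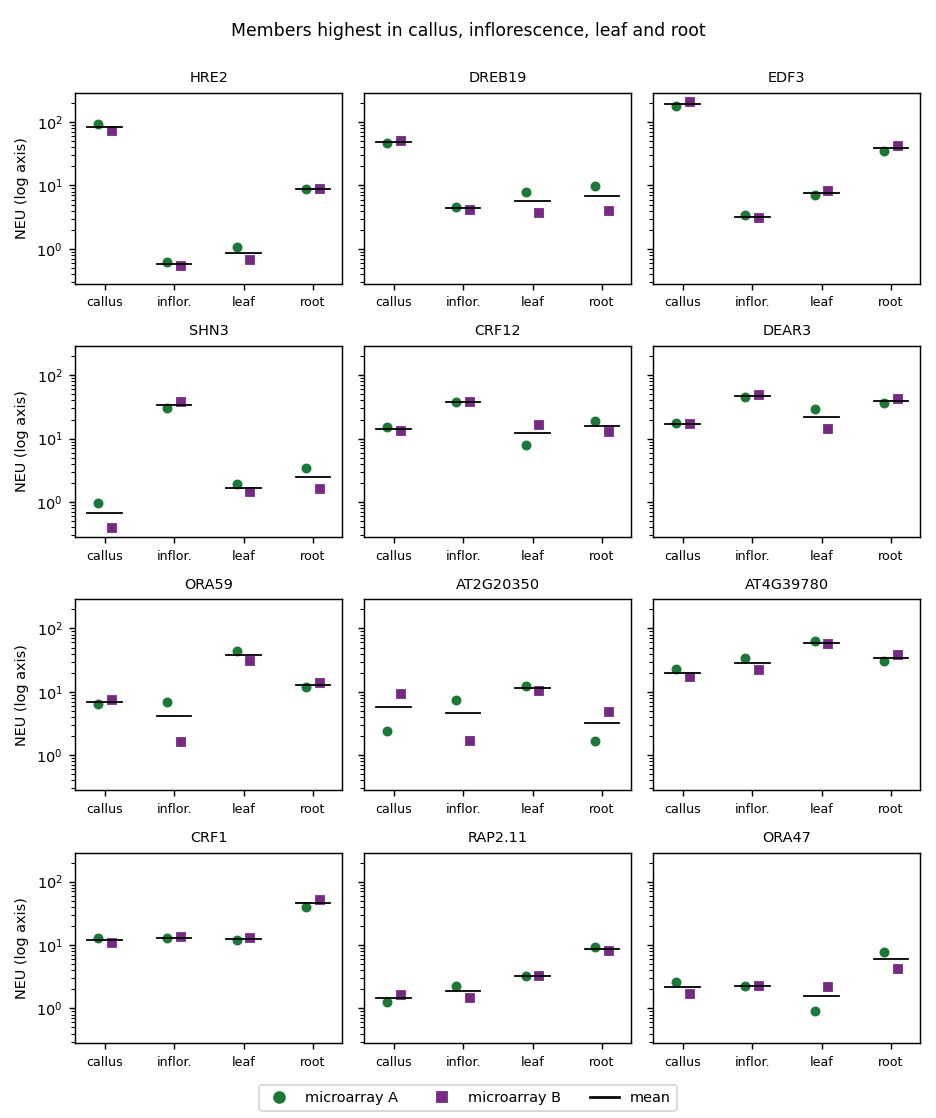
NEU of 12 members on each self-self microarray (log axis; circle, microarray A; square, microarray B; line, mean of both), with 3 members each that were highest in callus, inflorescence, leaf and root from the top row to the bottom row. HRE2 in callus lies at 93.6 and 72.7 NEU and SHN3 in inflorescence at 30.1 and 38.2 NEU, in each case above the 6 microarrays of the other tissues.

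The DREB and RAP2.4 relatives were split in callus. Of the 19, 6 were higher and 9 lower in callus than in leaf, with a median log2 difference of -0.90. Against root 5 were higher and 9 lower, with a median of -1.2. Over all gene probes 24.5% were higher and 27.9% lower in callus than in leaf, and 19.3% higher and 32% lower than in root. Their median log2 difference was -0.21 against leaf and -0.27 against root. The members below are those that were highest in callus. AT1G36060, a relative of RAP2.4, measured 186 and 165 NEU in callus, 51.3 and 62.4 NEU in root, 9.77 and 10.9 NEU in leaf, and 4.56 and 4.13 NEU in inflorescence. DREB19, which drought and salt induce, measured 46.1 and 50.3 NEU in callus and between 3.70 and 9.73 NEU on the 6 other microarrays. It was 7.75-fold higher in callus than in root (adjusted p = 0.0039), a log2 difference of 2.95 that became 3.60 without root microarray A and 2.31 without root microarray B. RAP2.4, RAP2.10, DREB2C and AT1G22190 were also highest in callus, and callus was above leaf by 3.59-fold for RAP2.4 (adjusted p = 0.00022). CRF2 and CRF5, which act downstream of cytokinin, were the cytokinin response factors highest in callus, CRF2 at 103 and 103 NEU against 29.7 and 29.0 NEU in root (log2 difference 1.81, adjusted p = 0.00033; 1.83 without root microarray A).

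The ethylene and jasmonate factors were mostly high in root or leaf and low in inflorescence, and most were low in callus too. All 5 were lower in inflorescence than in root, beside 26.4% of all gene probes. The call of ERF13 (log2 -1.32) was lost without inflorescence A (-1.43), inflorescence B (-1.21) or root microarray B (-1.12). In callus 3 were lower and none higher than in root, beside 32% of all gene probes lower. Against leaf 3 were lower and 1 higher in callus, beside 27.9% and 24.5%. Between callus and inflorescence 1 was higher in callus and 4 were not called. ERF15 measured 10.0 and 9.50 NEU in inflorescence, against 63.4 and 77.2 NEU in root (log2 difference -2.84, adjusted p = 0.00018), and the call was kept without root microarray A at -2.98. ERF1, which integrates ethylene and jasmonate signals in defence, measured 15.2 and 16.7 NEU in inflorescence, against 45.0 and 49.6 NEU in root, and was highest in callus at 64.3 and 61.4 NEU. ORA59, a regulator of the same defence genes, measured 6.81 and 1.63 NEU in inflorescence, where A and B lay far apart, and was highest in leaf at 44.0 and 31.1 NEU. The call of ORA59 between inflorescence and root was lost without inflorescence B, with a log2 difference of -0.91 in place of -1.94 (and -2.98 without inflorescence A), and also without root microarray A (log2 -2.02, adjusted p = 0.089), root microarray B (-1.86), either callus microarray or either leaf microarray (both -1.94).

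Other members were highest in root. RAP2.11, which regulates the response to low potassium, measured 9.18 and 8.09 NEU in root and at most 3.19 NEU elsewhere, and CRF1 measured 39.1 and 52.0 NEU in root, against 12.1 and 12.8 NEU in leaf. For CRF1 1 of the 2 leaf spots was marked as an outlier and did not enter the fit. AT4G18450 measured 276 and 319 NEU in root, against 134 and 121 NEU in leaf, a difference that was not called. ORA47, a regulator of jasmonate synthesis, measured 7.65 and 4.16 NEU in root and at most 2.63 NEU elsewhere. ORA47 was called between root and leaf (adjusted p = 0.026), but not without root microarray A (log2 1.56, adjusted p = 0.10) or leaf A (log2 1.38), nor with the spread estimated without inflorescence A or inflorescence B (adjusted p = 0.053 in both). On the direct root/leaf microarrays ORA47 gave log2 ratios of -0.28 and -0.30 and was not called (adjusted p = 0.34). CRF1 gave 0.32 there and AT4G18450 gave -0.01, while RAP2.11 gave 2.03.

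Counted over all members, inflorescence was the low tissue. Against root 29 of 52 members were called, 4 higher and 25 lower in inflorescence, with 48.6% of all gene probes called, 22.3% higher and 26.4% lower. Without root microarray A 27 were called, 2 higher and 25 lower. Against leaf 28 of 52 were called, 6 higher and 22 lower in inflorescence, with 38.7% of all gene probes called, 21.1% higher and 17.6% lower. The median log2 difference of the members was -1.15 for inflorescence minus root and -0.80 for inflorescence minus leaf, beside -0.09 and -0.03 over all gene probes. The count against leaf was 18 without inflorescence A, 2 higher and 16 lower, and 13 without inflorescence B, 2 higher and 11 lower. Per the file headers, the images of the inflorescence microarrays were put through Feature Extraction on another day than those of leaf and root, and tissue and that day cannot be told apart in these comparisons. Both root microarrays were also of another slide series than both inflorescence microarrays, with the series of root inferred from short slide numbers. Leaf had slides of both series. Tissue and slide series cannot be told apart for inflorescence against root.

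The images of callus and inflorescence shared a day of Feature Extraction. Callus against inflorescence gave 24 of 51 members called, 17 higher and 7 lower in callus, with 37% of all gene probes called, 15.5% higher and 21.5% lower. Without callus B 18 were called, 16 higher and 2 lower, without inflorescence A 20, 18 higher and 2 lower, and without inflorescence B 17 were called, 15 higher and 2 lower. The images of root and leaf also shared a day, and 16 of 52 members were called between their self-self microarrays, 13 higher and 3 lower in root, with 32% of all gene probes called, 19% higher and 13% lower. Without root microarray A 13 were called, 11 higher and 2 lower, and quantile normalization gave 12 higher and 5 lower. Callus against leaf gave 28 of 51, 14 higher and 14 lower in callus, with 52.5% of all gene probes called, 24.5% higher and 27.9% lower. Quantile normalization gave 14 higher and 10 lower there. Callus against root gave 30 of 51, 12 higher and 18 lower in callus, with 51.3% of all gene probes called, 19.3% higher and 32% lower. Without root microarray A 26 were called, 11 higher and 15 lower. After quantile normalization 14 were higher and 13 lower. Tissue and the day of Feature Extraction cannot be told apart for callus against leaf or root. Both callus microarrays were also of another slide series than both root microarrays, so tissue and slide series cannot be told apart for callus against root.

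Root and leaf were then compared directly on shared microarrays. Of the 52 members, 35 passed an adjusted p of 0.05, 20 higher and 15 lower in root. Of all gene probes 69.4% passed, 38.7% higher and 30.6% lower, so the share among the members was near the background. The median log2 ratio of root over leaf was -0.02 for the members and 0.03 for all gene probes. More than 2-fold changes among the called were fewer, 8 higher and 2 lower in root, or 10 of 52 beside 22.5% of all gene probes. With normexp background correction and loess normalization 16 members were higher and 21 lower, so the balance of directions differed with both steps changed together. It also differed with the ratios centred on the median and no other change, at 17 higher and 17 lower. Root self-self microarray A entered the fit with 20 higher and 15 lower only through the shared spread, and without it these counts were the same.

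**Figure D3:**
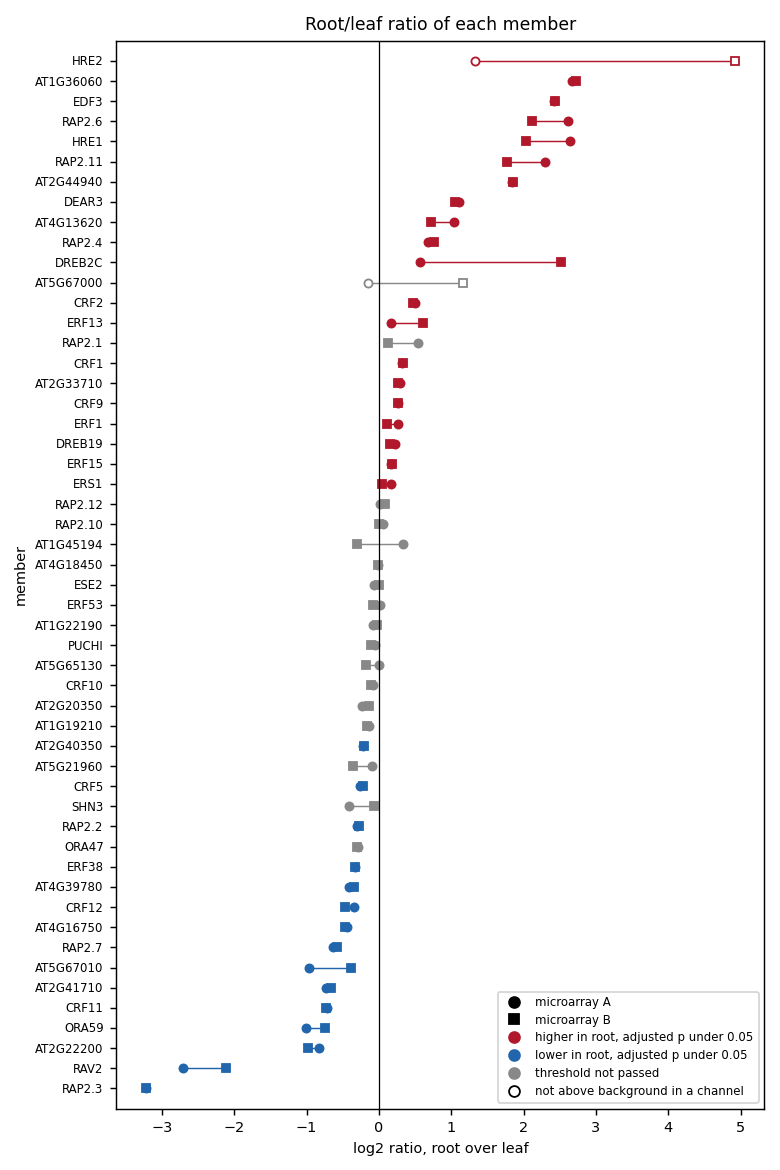
Log2 ratio of root over leaf of each of the 52 members on root/leaf microarrays A (circle) and B (square), sorted by the fitted ratio. Red members were higher and blue members lower in root at an adjusted p under 0.05, open symbols were not well above background in a channel, and most members lie within 1 log2 unit of 0.

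The members highest in root had log2 ratios above 0 on both microarrays. AT1G36060 gave 2.67 and 2.73 (SE of the mean 0.07, adjusted p = 4.6e-09), EDF3 2.42 and 2.43 (adjusted p = 3e-07), and AT2G44940, a DREB relative, 1.84 and 1.85 (adjusted p = 1.3e-08). RAP2.6, a factor of stress and wound responses, had a mean of 2.37 (SE 0.16, adjusted p = 1.6e-06), HRE1 2.64 and 2.03 (adjusted p = 1.4e-07) and RAP2.11 2.29 and 1.78 (adjusted p = 0.00024). DEAR3 gave 1.11 and 1.05, and AT4G13620 1.03 and 0.72. All 8 were above background in both channels. HRE2 was also higher in root, and it was the gene whose leaf channel was not well above background on either microarray. Averaged over both microarrays, HRE2 was 7.90-fold higher in root (adjusted p = 0.0019 for the fitted ratio). For this fold the leaf signal on each microarray was the higher of the lowest signal well above background and the signal itself. Microarray A alone lay below that fold, so it is not a lower bound for each microarray. Its measured ratios were 1.32 on microarray A and 4.92 on microarray B, so the log2 ratio was 3.12 with both, 4.92 without microarray A and 1.32 without microarray B.

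Fewer members were clearly lower in root. RAP2.3 gave log2 ratios of -3.22 and -3.22 (SE of the mean 0.04, adjusted p = 1.9e-10) and RAV2 of -2.71 and -2.11 (adjusted p = 2.8e-07). These were the members lower in root by more than 2-fold. AT2G22200, a RAP2.4 relative, gave -0.83 and -0.98, ORA59 -1.01 and -0.75, CRF11 -0.71 and -0.74, AT2G41710 -0.73 and -0.66, and RAP2.7 -0.63 and -0.58, all lower in root on both microarrays. AT5G67010 gave -0.97 and -0.38 and lost its call without microarray A. Smaller differences were called with both microarrays but not without one. CRF9, ERF15, DREB19 and AT2G40350 lost their call without microarray A and also without microarray B, and AT2G33710 without A. DREB2C rested on microarray A alone, since its spot on B was marked as an outlier. ERF1 (log2 0.19) was not called without microarray A (0.11), nor RAP2.2 (-0.29) without A (-0.27) or B (-0.30), nor the receptor ERS1 (0.11) without A (0.04).

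The direct ratios can be set beside the differences between the self-self microarrays, which used the same RNA samples. EDF3 gave 2.43 directly and 2.32 between self-self microarrays, AT2G44940 1.85 and 1.76, RAP2.3 -3.22 and -2.82, and RAV2 -2.41 and -2.47. The routes differed by at most 0.40 for these. Over all 52 members the sign was opposite for 16, and the gap was over 1 log2 unit for 6. It was widest for ORA47, at -0.29 directly and 2.0 between self-self microarrays. AT2G20350 gave -0.13, with 1 root/leaf spot left out as an outlier, and -2.01, CRF1 0.32 and 1.82, AT5G21960 -0.22 and 1.04, AT4G18450 -0.01 and 1.22, and CRF9 0.27 and -0.91. Among these 6 the self-self difference was called for ORA47 and CRF1. Without root microarray A the self-self difference was 1.56 for ORA47, -1.24 for AT2G20350, 2.03 for CRF1, 1.01 for AT5G21960 and 1.32 for AT4G18450, and that of CRF9 turned to 1.204. The cause of these gaps was not tested.

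Silique was compared with inflorescence on the last 2 microarrays. Of the 52 members, 36 were called, 23 higher and 13 lower in silique, with 65.9% of all gene probes called, 33.1% higher and 32.8% lower. Among the 28 members well above background in both channels of both microarrays 24 were called, 17 higher and 7 lower, beside 77.3% of the 14954 such gene probes, 41% higher and 36.3% lower. The median log2 ratio over all members was 0.10, beside 0.00 over all gene probes. Leaf markers moved with this comparison, as 4 of 6 were higher in silique, with a median log2 ratio of 1.23, while 4 of the 5 flower markers measured were lower, with a median of -1.22. Their part in the ratios of the members was not tested.

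**Figure D4:**
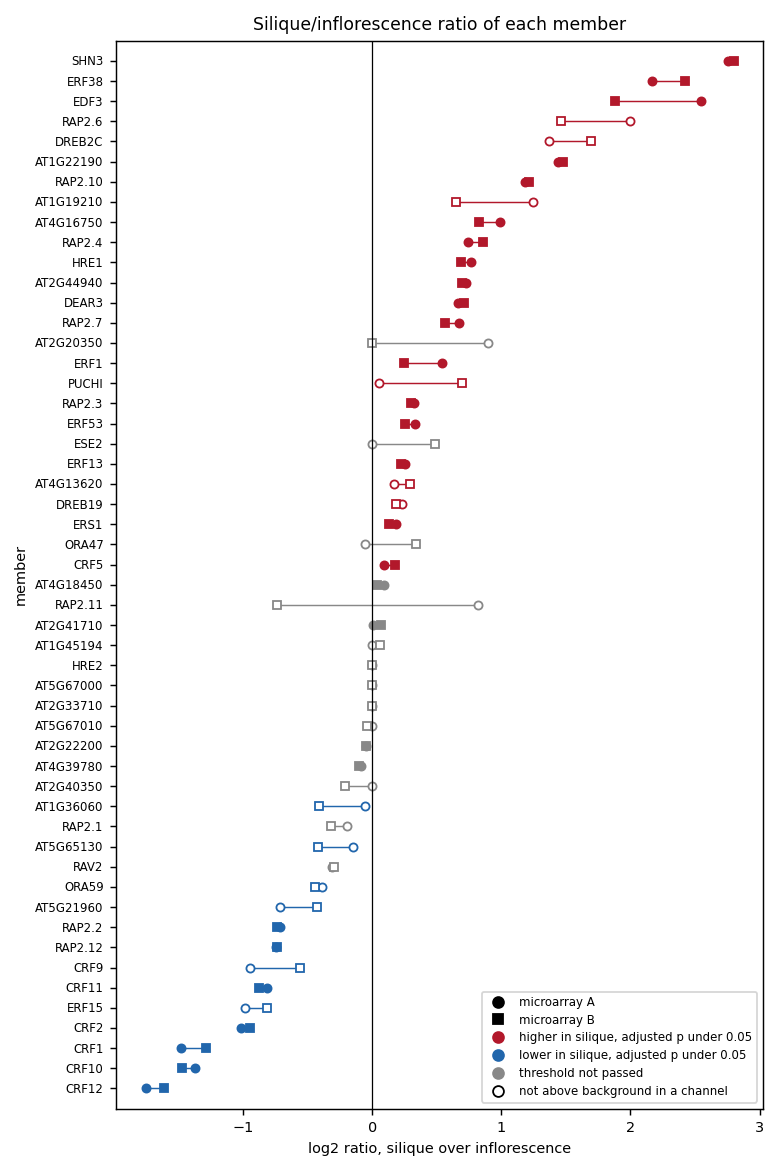
Log2 ratio of silique over inflorescence of each of the 52 members on silique/inflorescence microarrays A (circle) and B (square), sorted by the fitted ratio. Colours and open symbols are as for root and leaf, SHN3 stands at the top with 2.76 and 2.80, and CRF12, CRF10 and CRF1 stand at the bottom.

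The cytokinin response factors moved mostly one way. The founding members of this group are known for induction by cytokinin and act in embryo, cotyledon and leaf development. Of the 7, 6 were lower in silique, beside 32.8% of all gene probes, with a median log2 ratio of -0.98 for the 7. CRF12 gave log2 ratios of -1.76 and -1.62 (adjusted p = 1e-07), CRF10 -1.37 and -1.48 (adjusted p = 5.5e-09), CRF1 -1.48 and -1.29 (adjusted p = 1.7e-07), CRF2 -1.01 and -0.95 (adjusted p = 1.1e-08) and CRF11 -0.82 and -0.88 (adjusted p = 4.1e-08). Both microarrays gave the same direction for each. CRF9 was not well above background in silique and was at least 1.28-fold lower there. The exception was CRF5, at 0.09 and 0.17 on microarrays A and B, whose call was lost without microarray B (0.09). In root against leaf the same 7 genes were split, 3 higher, 3 lower and 1 not called, with a median of -0.09.

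The low-oxygen factors were split in silique. RAP2.12 gave -0.75 and -0.74 and RAP2.2 -0.72 and -0.74, both lower in silique, while HRE1 gave 0.77 and 0.69 and RAP2.3 0.32 and 0.30, both higher. HRE2 was not well above background in silique, and its deposited ratio was 0 on both microarrays. Of 3 members with a ratio of exactly 0 on both microarrays none was above background in silique.

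Among called members well above background in both channels of both microarrays, genes of development and of the DREB branch led those higher in silique. SHN3 gave log2 ratios of 2.76 and 2.80 (SE 0.40, adjusted p = 0.00026) and ERF38, of the DREB branch, 2.17 and 2.42 (adjusted p = 4e-09). EDF3 gave 2.55 and 1.88 (adjusted p = 7e-07), AT1G22190 1.44 and 1.48 (adjusted p = 1e-09), and RAP2.10 1.19 and 1.22 (adjusted p = 5.2e-05). AT4G16750 gave 0.99 and 0.83, RAP2.4 0.74 and 0.86, and RAP2.7 0.67 and 0.56. Among the 19 DREB and RAP2.4 relatives 11 were higher and 2 lower in silique, with a median of 0.24. The 11 include DREB2C and DREB19, which were not well above background in silique. Among the 5 developmental genes 4 were higher and none lower, with a median of 0.62. Of these 4, PUCHI was well above background in silique on 1 microarray, gave 0.05 and 0.70, and lost its call without microarray B. Over all gene probes 33.1% were higher and 32.8% lower. SHN3 was thus high in inflorescence against the other single tissues and higher still in silique.

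Several calls in silique rested on dim spots. The silique channel was not well above background on either microarray for 18 members, among them DREB2C and AT1G19210, which were called higher in silique, so no fold is given for them. Of members well above background in inflorescence, ERF15 was 1.87-fold lower in silique (adjusted p = 1.8e-06). This is its measured fold, since its own dim silique signal set the value. The bound, averaged over both microarrays, was 1.40-fold lower for AT5G21960 (adjusted p = 0.0083) and 1.09-fold lower for ORA59 (adjusted p = 0.0015). RAV2 and RAP2.1 were likewise not above background in silique and did not pass the threshold. DREB19, also not above background in silique and called higher there, lost its call without microarray A.

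The receptor ERS1 and the other genes of the ethylene pathway were read in the same fits. ERS1 measured 77.5 and 62.9 NEU in callus, 66.9 and 49.6 NEU in leaf, 56.4 and 62.8 NEU in root, and 22.8 and 22.0 NEU in inflorescence, where it was lowest (inflorescence minus leaf -1.36, adjusted p = 0.0034). The leaf values overlapped those of callus and of root. Of the 5 receptors, ERS1 included, 4 were higher and 1 lower in silique than in inflorescence, with ETR2 at a log2 ratio of 1.54 and ERS1, at 0.15, not called without microarray A (0.13). Likewise 4 were higher and 1 lower in root than in leaf, with ETR2 at 1.32. Of the 15 genes of ethylene synthesis, 9 were higher and 1 lower in silique, with a median of 0.63, and in root 8 were higher and 4 lower, with a median of 0.62. The ACC oxidases, which make ethylene, diverged in root, with ACO1 at 4.35 and ACO5 at 4.01 but ACO4 at -3.80. Of the 10 other ethylene signalling genes measured, which include both activators and repressors of the response, 3 were higher and 5 lower in silique. In root 5 were higher and 5 lower. Beside these counts, 33.1% of all gene probes were higher and 32.8% lower in silique, and 38.7% higher and 30.6% lower in root.

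Known target genes gave further context. Of 5 genes induced by ethylene or jasmonate, 3 were higher in silique than in inflorescence and none lower, led by the defence gene PR4 at a log2 ratio of 3.17 and with the chitinase gene CHI-B also higher. In root against leaf 1 was higher and 2 lower, with CHI-B at 3.93 and PR4 at -1.19. Of 8 cold and drought genes known as targets of DREB factors, 6 were lower and 2 higher in root than in leaf, with a median of -1.11 and COR15A at -3.54. In silique 3 were higher and 2 lower than in inflorescence, with RD29A at 2.66 and KIN1 at -2.09. Callus was lower than inflorescence for 5 of the 8 and higher for 1, with a median of -3.57. The shares over all gene probes were 38.7% higher and 30.6% lower in root than in leaf, and 33.1% and 32.8% in silique. For callus against inflorescence they were 15.5% higher and 21.5% lower.

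Members that lie next to each other in the genome did not always share their values. DREB2C and its neighbour AT2G40350, with no protein-coding gene between them in the reference table, differed in pattern. DREB2C was highest in callus, at 15.6 and 15.2 NEU, against 7.33 and 12.2 NEU in root. AT2G40350 was lower in callus, at 3.29 and 3.30 NEU, than in root, at 8.18 and 10.6 NEU. AT5G67000 and AT5G67010, also neighbours, were both dim, with at most 0.788 NEU for AT5G67000 and at most 2.72 NEU for AT5G67010 on the 8 self-self microarrays.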

How the data were processed

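The authors deposited, for each of 12 Agilent microarrays, Feature Extraction output with the processed intensity of both channels, after background subtraction and dye normalization, and the log10 ratio of red over green. Per the file headers, Feature Extraction 7.1.1 was used for silique/inflorescence and 6.1.1 for the others, while the submitters' notes name 8.1. A separate table of log10 ratios deposited by the authors differed from these by at most 1.07e-07. Affymetrix and MPSS data were not analysed here, nor protein classes of the members.

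Ratios were turned to log2. Intensities of both channels were averaged and scaled to NEU. Saturated spots stayed in, whereas controls and outlier-marked spots did not enter the fits. limma 3.58.1 (lmFit, eBayes with trend; R 4.3.3) was run over all gene probes, with Benjamini-Hochberg adjusted p under 0.05. All 12 microarrays shared the spread for ratios, and the 8 self-self microarrays for single tissues. A difference of NEU is a difference of log2 NEU. Scripts were tested on simulated data. Bounds used the higher of the lowest signal well above background and the dim spot's own signal. They were averaged over both microarrays, so a single microarray can lie below a bound. The number of microarrays limits the precision.

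Named genes were the 8 highest and 8 lowest called members per direct comparison above background and unsaturated, those with a bound, the 4 most biased to each single tissue, and textbook genes. The gene family and the lists were chosen with earlier results of these data known, although the rule for members reads no measured value. Alternatives covered background correction, normalization, scaling, single channels, filters, a dye term, slide series, a replicate block and leaving out each replicate.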

Additional observations from a re-analysis of the deposited data

How the results depend on the processing

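Counts of members called were computed under 126 alternatives, and 124 stayed within 1.5 times the count reported. The 2 others were inflorescence minus leaf without inflorescence A and without inflorescence B, and over all microarrays left out in turn that count ranged from 13 to 31 (28 with all). With A and B as a replicate block the counts were 35 for root/leaf and 35 for silique/inflorescence, and 15 for root minus leaf, 24 for callus minus inflorescence, 30 for callus minus leaf, 29 for callus minus root, 27 for inflorescence minus leaf and 27 for inflorescence minus root. Deviations of A and B correlated between tissues at -0.20 to 0.17, and whether the letters mark anything shared between tissues was not tested. With the slide series (for root inferred from short slide numbers) as a random block 28 root/leaf and 29 silique/inflorescence members were called, and with normexp and loess 37 and 27. Of the 226 calls of members over the 8 comparisons, 73 were lost when at least 1 microarray was left out. For 64 chosen values of single members there were 840 alternatives, of which 802 kept direction and call, 20 lost and 14 gained a call, and 4 changed sign. These were RAP2.12 (root/leaf 0.048; -0.050 with normexp and loess), ERS1 (root/leaf 0.11; -0.0098 with normexp and loess) and SHN3 (root/leaf -0.24; 0.19 with a dye term and 0.011 with a dye term without root self-self microarray A, an alternative chosen after seeing the data). The cause was not tested. Dim signal limited silique, and no dye swap was there to balance the dyes.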
